A study of Mus musculus with 46 samples.

Results

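The response of the gastrocnemius muscle to orchidectomy (ORX, removal of the testes) was measured in male mice that lack alpha-actinin-3, the product of *Actn3*. Members were taken by group name and replicate number, which gave 11 libraries, 5 KO-ORX and 6 KO-sham, of the 45 count columns in the series. All 17514 genes of the gastrocnemius count table were tested. The labels describe 6 KO-ORX mice among 46 samples, and the sixth, which has no column, was not analysed here. The study's design crosses *Actn3* genotype with androgen withdrawal in males and with androgen treatment in females, and asks whether the genotype alters the muscle's response to androgen. RNA reads from total RNA libraries were counted on genes. KO-ORX and KO-sham mice were males of strain C57BL6 (C57BL/6J in the methods) with *Actn3* genotype KO, operated on at 8 to 10 weeks of age and studied 12 weeks later. In the sham operation the testes were exposed and left in place, and both groups had buprenorphine, isoflurane and surgical clips. The labels do not name the KO allele, and a general note in them puts surgery at 4 to 5 weeks. For comparison, 6 WT-ORX and 6 WT-sham mice differed from these groups in genotype by the labels. The genotypes also differed in library size: every WT-sham library held more counts than every KO-sham library. The median of WT-ORX was above that of KO-ORX, with overlapping ranges. In a second experiment, spinalis muscle came from female KO mice of strain C57BL6 that carried a silastic implant from 4 to 5 weeks of age for 6 weeks. The implant held 10 mg of dihydrotestosterone (DHT) in 6 KO-DHT mice and was empty in 5 KO-empty mice.

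Testosterone and its product DHT are steroids that alter transcription in muscle fibres. Loss of testicular androgen reduces muscle mass in male rodents. Alpha-actinin-3 crosslinks actin filaments at the Z-disc of fast fibres, and in its absence alpha-actinin-2 takes its place and fast fibres take on a more oxidative metabolism.

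The libraries held 29511438 to 37486666 counts in KO-sham mice and 29705361, 26653932, 46759086, 48521557 and 41583270 in KO-ORX mice 1 to 5. Levels are given as CPM, a count relative to a common library total, after scaling of the libraries by the trimmed mean of M-values (TMM), a method that sets most genes to no change. The TMM factor ranged from 0.901 to 1.01 in KO-sham mice and was 1.03, 1.05, 1.03, 1.05 and 1.06 in KO-ORX mice 1 to 5, so that every KO-ORX library lay above every KO-sham library. With scaling by total counts alone, the median log2 fold change of all genes was 0.12 in place of 0.01, and changes below are relative to the TMM median. Genes of mitochondrial DNA took 10.7 to 17.8% of counts in KO-sham mice (median 15.1%) and 13.1, 13.6, 13.3, 11.9 and 12.8% in KO-ORX mice 1 to 5. The KO-ORX shares lay within the range of KO-sham, which was the wider group (exact permutation test over mice, p = 0.11, adjusted over 16 gene classes 0.27). KO-sham mouse 1 had the lowest share and also the highest share for titin (*Ttn*), 16.4% against 7.70 to 11.7% in the other KO-sham mice. The 10 genes with most counts took 35.1 to 40.1% in KO-sham mice and 34.3 to 35.6% in KO-ORX mice (exact permutation p = 0.037, adjusted 0.20). They were *Ttn*, *mt-Rnr2*, *Myh4*, *mt-Co1*, *Tpm1*, *Neb*, *Acta1*, *Tnnt3*, *Ckm* and a gene without a symbol (ENSMUSG00002076161). The last took 0.705 to 1.33% of counts in KO-sham mice and 1.407 to 1.5996% in KO-ORX mice, and its TMM-scaled levels overlapped (log2 fold change 0.41 ± 0.14, q = 0.063). A class of 36 genes of the sarcomere, which does not hold *Ttn*, took 11.9 to 13.6% and 12.2 to 13.0% (exact permutation p = 0.87, adjusted 0.93). In a principal components analysis of the 11 KO mice, PC1 held 22.97% of the variance, and every KO-ORX score (8.95 to 33.2) lay above every KO-sham score (−32.0 to 0.496). PC2 held 13.7%, and KO-sham mouse 1 was highest on it (32.6). KO-ORX mice 1 and 2 scored 17.2 and 13.7 on PC2 and mice 3 to 5, whose libraries were the largest, −26.1, −11.6 and −18.2.

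The genotype label was checked on the alpha-actinins. *Actn3* (ENSMUSG00000006457) was at 35.8 to 54.7 CPM in KO-sham mice (median 46.5) and at 34.3, 45.3, 49.6, 53.1 and 44.4 CPM in KO-ORX mice 1 to 5, against 5977 to 7052 CPM in WT-sham and 7826 to 9617 CPM in WT-ORX mice. Transcript counts in every KO mouse were thus far below every WT mouse, and the KO groups overlapped (log2 fold change −0.01 ± 0.095, q = 0.98). In WT the difference between ORX and sham was 0.42 (q = 0.0020), and the interaction, which is the change in KO minus that in WT, was −0.43 ± 0.13 (q = 0.22). *Actn2*, which encodes the alpha-actinin of all striated fibres, was at 336 to 445 CPM in KO-sham and 309 to 407 CPM in KO-ORX mice (log2 fold change −0.11 ± 0.11, q = 0.59). The non-muscle alpha-actinins also missed the threshold, with log2 fold change 0.49 ± 0.18, q = 0.081 for *Actn1* and log2 fold change 0.32 ± 0.11, q = 0.057 for *Actn4*. The tissue label was checked on 9 markers of muscle fibres, which took 8.95 to 11.0% of counts in KO-sham and 9.32 to 10.0% in KO-ORX mice (exact permutation p = 0.94, adjusted 0.94). *Myh4*, the myosin heavy chain of fast IIB fibres, had most counts among them, and none of the 9 was at 0 in a library. Of the 9 markers, 3 were lower and 0 higher at the threshold given below, which called 5.57% of all genes.

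Gene expression in the KO gastrocnemius differed between ORX and sham for 975 of 17514 genes (5.57%), of which 348 were higher (1.99%) and 627 lower (3.58%). Here q is the result of the quasi-likelihood test in edgeR, adjusted over all genes by the Benjamini-Hochberg method, and a gene rose or fell where q was at most 0.01. At an unadjusted p under 0.05 there were 4288 genes. The rises had a median log2 fold change of 0.60 and the falls of −0.34, beside 0.01 over all genes. Doubling or more was seen in 66 of the rises, and 54 of the falls were as large in the other direction. In 654 of the 975 genes (67.1%) the KO-ORX and KO-sham mice did not overlap, against 936 of all genes (5.34%). The balance of directions depended on scaling: with scaling by total counts 707 genes were higher and 193 lower. Fitting the KO groups alone gave 485 genes. Without KO-ORX mouse 4 the count was 589 and without KO-ORX mouse 5 it was 606, and 466 of the 975 genes passed in each of the 11 fits that left out 1 mouse.

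The leading falls included genes of polyamine synthesis and turnover. Polyamines are small cations that bind nucleic acids. *Amd1* (ENSMUSG00000075232), whose product S-adenosylmethionine decarboxylase supplies the aminopropyl groups of spermidine and spermine, ranged from 571 to 770.3 CPM in KO-sham mice (median 648) and was 142, 149, 121, 128 and 129 CPM in KO-ORX mice 1 to 5. Every KO-ORX mouse was far below every KO-sham mouse, and *Amd1* fell with a log2 fold change of −2.31 ± 0.099 (q = 1.4e-14). *Amd2* (ENSMUSG00000063953), a further copy of the same enzyme, ranged from 52.0 to 78.1 CPM in KO-sham mice (median 62.7) and was 12.8, 14.7, 12.2, 11.8 and 13.0 CPM in KO-ORX mice 1 to 5. It fell by 2.32 ± 0.12 (q = 2.0e-13) on the log2 scale, again without overlap, and the related transcript *Amd-ps3* fell by 2.35 ± 0.12 (q = 2.0e-13). The copies resemble each other in sequence, so that reads could be assigned to the wrong member. *Smox* (ENSMUSG00000027333), spermine oxidase, ranged from 113 to 175 CPM in KO-sham mice (median 133) and was 37.0, 47.8, 50.2, 41.1 and 43.9 CPM in KO-ORX mice 1 to 5. All 5 KO-ORX mice were below all 6 KO-sham mice (log2 fold change −1.64 ± 0.12, q = 3.0e-10). *Odc1* (ENSMUSG00000011179), ornithine decarboxylase, which makes putrescine, ranged from 57.0 to 73.4 CPM in KO-sham mice (median 63.1) and was 41.4, 41.4, 34.6, 31.5 and 35.8 CPM in KO-ORX mice 1 to 5. The groups did not overlap, and *Odc1* fell by 0.79 ± 0.11 (q = 1.9e-05). These 4 were all the calls among the 13 measured genes of polyamine metabolism, whose median was −0.03, or 0.07 with scaling by total counts. The aminopropyltransferase genes *Srm* (log2 fold change 0.09 ± 0.11, q = 0.67) and *Sms* (log2 fold change −0.20 ± 0.058, q = 0.023) and the acetyltransferase gene *Sat1* (log2 fold change 0.22 ± 0.086, q = 0.11) missed the threshold. In the neighbouring cycle of methionine salvage, 1 of 18 genes fell (5.56%, against 5.57% of all genes called) and 0 rose, with a median of −0.04 (0.07 with scaling by total counts, under which 1 rose and 0 fell). That gene was *Adi1* (log2 fold change −0.27 ± 0.065, q = 0.0069), a dioxygenase of methionine salvage, which missed q = 0.01 in the absence of KO-sham mouse 3, 4 or 6 or KO-ORX mouse 1, 2 or 3, with q up to 0.027. *Mat2a*, which makes S-adenosylmethionine, gave −0.19 ± 0.078 (q = 0.13) and *Mtap*, which recycles methylthioadenosine, 0.04 ± 0.085 (q = 0.85).

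The other falls of smallest p or largest fold included transporter genes. *Slc30a2* (ENSMUSG00000028836), a zinc transporter of intracellular vesicles, ranged from 6.51 to 10.7 CPM in KO-sham mice (median 7.22) and was 0.946, 0.573, 0.542, 0.648 and 0.633 CPM in KO-ORX mice 1 to 5. Its level was low in all KO-ORX mice, highest in mouse 1, and did not reach the KO-sham range (log2 fold change −3.60 ± 0.24, q = 9.9e-11). *C7* (ENSMUSG00000079105), complement component C7, ranged from 19.8 to 35.0 CPM in KO-sham mice (median 28.2) and was 3.39, 1.79, 0.708, 1.49 and 3.28 CPM in KO-ORX mice 1 to 5. KO-ORX mouse 3 was lowest, and the groups were well apart (log2 fold change −3.71 ± 0.28, q = 1.1e-09). *Slc15a5* (ENSMUSG00000044378), of the family of proton-coupled peptide transporters, ranged from 9.11 to 12.4 CPM in KO-sham mice (median 11.5) and was 1.63, 0.823, 0.375, 0.471 and 0.407 CPM in KO-ORX mice 1 to 5. KO-ORX mouse 1 kept the highest level of its group and still lay below KO-sham (log2 fold change −4.01 ± 0.31, q = 1.1e-09). *Slc40a1*, which encodes the iron exporter ferroportin, ranged from 50.1 to 56.6 CPM in KO-sham mice (median 54.7) and was 26.9, 27.5, 28.2, 30.2 and 28.6 CPM in KO-ORX mice 1 to 5. Both groups were tight and separate (log2 fold change −0.93 ± 0.059, q = 2.9e-11). *Sult1e1*, the sulfotransferase that inactivates estrogens, had 275 counts over the 6 KO-sham libraries and 0 over the 5 KO-ORX libraries. At a floor of 3 counts over the group, it was at least 94.4-fold lower in KO-ORX (q = 1.4e-07), and a count of 0 does not show that the transcript was absent. *Irx3os*, a transcript next to *Irx3*, had 0 to 6 counts in a KO-ORX library and 11 to 54 in a KO-sham library (log2 fold change −4.002 ± 0.54, q = 1.5e-05).

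Regulators and enzymes completed the 12 falls of smallest p. *Cdk19*, a kinase of the Mediator complex, ranged from 72.9 to 94.4 CPM in KO-sham mice (median 77.9) and was 29.2, 27.9, 24.9, 28.8 and 28.8 CPM in KO-ORX mice 1 to 5. The KO-ORX mice lay close together and below all KO-sham mice (log2 fold change −1.53 ± 0.073, q = 8.9e-14). *Actr3b*, an actin-related protein of the Arp2/3 family, ranged from 12.9 to 19.7 CPM in KO-sham mice (median 16.7) and was 3.72, 3.54, 2.04, 2.44 and 2.51 CPM in KO-ORX mice 1 to 5. All 5 KO-ORX mice were low (log2 fold change −2.59 ± 0.16, q = 1.9e-11). *Serpinb6a*, an inhibitor of serine proteases, fell by 0.93 ± 0.056 (q = 8.4e-12) and *Cbr2*, a carbonyl reductase, by 1.36 ± 0.11 (q = 1.3e-09), both without overlap of the groups. None of these 12 falls lost its call when any 1 of the KO mice was left out. Exons of *Serpinb6a* overlap those of *Nqo2* on the opposite strand over 14.1% of their bases in the GENCODE M21 annotation. The labels do not state whether counting used the strand of the reads, and 20 of 240 annotated named genes share at least 10% of their exon bases in this way. Called genes among them include *Gabarapl1* (28.3%), *Trim54* (26.6%), *Prdx5* (19.1%), *Bhlhe41* (19.05%), *Tceal7* (18.3%) and *Sqstm1* (17.3%). *Pdha1* (16.15%), *Pgm1* (13.6%), *Dchs2* (12.05%) and *Mybph*, described below, are others.

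The leading rises included a growth inhibitor, metabolic enzymes and matrix genes. *Sesn1* (ENSMUSG00000038332), sestrin 1, which restrains mTORC1 when amino acids are scarce, ranged from 27.0 to 34.1 CPM in KO-sham mice (median 30.1) and was 66.8, 55.8, 59.9, 64.6 and 65.5 CPM in KO-ORX mice 1 to 5. All 5 KO-ORX mice were about as high as each other and above KO-sham (log2 fold change 1.06 ± 0.074, q = 1.6e-10). *Car3* (ENSMUSG00000027559), carbonic anhydrase 3, ranged from 709.8 to 1039 CPM in KO-sham mice (median 836) and was 1332, 1600.5, 2062, 1616 and 1541 CPM in KO-ORX mice 1 to 5. KO-ORX mouse 3 was highest, and the groups did not overlap (log2 fold change 0.94 ± 0.093, q = 1.1e-07). *AW551984* ranged from 2.97 to 8.32 CPM in KO-sham mice (median 6.54) and was 26.6, 31.9, 25.7, 39.6 and 27.6 CPM in KO-ORX mice 1 to 5. KO-sham mice varied, and every KO-ORX mouse was above them (log2 fold change 2.31 ± 0.19, q = 6.3e-09). *Neu2*, a cytosolic sialidase, rose by 0.93 ± 0.099 (q = 3.6e-07) without overlap. *Stc2*, the secreted glycoprotein stanniocalcin 2, ranged from 0.968 to 2.14 CPM in KO-sham mice (median 1.83) and was 5.48, 3.44, 5.21, 4.56 and 4.86 CPM in KO-ORX mice 1 to 5. KO-ORX mice were all above 3 CPM and KO-sham mice all below (log2 fold change 1.45 ± 0.17, q = 2.1e-06). *Smpd3*, neutral sphingomyelinase 2, rose by 1.63 ± 0.19 (q = 1.5e-06), *Sdc2*, a syndecan of the cell surface, by 0.53 ± 0.055 (q = 2.3e-07), *Angptl2*, an angiopoietin-like secreted protein, by 0.53 ± 0.057 (q = 4.8e-07) and *Dchs2*, a cadherin, by 1.17 ± 0.14 (q = 1.9e-06). *Mxra8*, a membrane protein of the immunoglobulin family, rose by 0.69 ± 0.080 (q = 1.6e-06). Among the largest rises by fold, *Chil1*, a chitinase-like protein, rose by 2.21 ± 0.44 (q = 0.0014) and the uncharacterised *Gm47708* by 2.35 ± 0.32 (q = 1.4e-05). *E2f7*, a repressor of the E2F family, had 0 to 5 counts in a KO-sham library and 9 to 33 in a KO-ORX library (log2 fold change 2.71 ± 0.50, q = 6.9e-04). *Syt13*, a synaptotagmin, had 0 to 9 and 11 to 39 counts (log2 fold change 2.77 ± 0.68, q = 0.0081), and the zinc transporter gene *Slc39a12* had 0 to 16 and 17 to 51 (log2 fold change 2.45 ± 0.57, q = 0.0056). Counts this low depended on single mice: *Syt13* missed q = 0.01 in the absence of KO-sham mouse 1, 2, 3, 4 or 6 or KO-ORX mouse 1, 3, 4 or 5 (up to 0.022), and *Slc39a12* in that of KO-sham mouse 1, 2, 3 or 6 or KO-ORX mouse 2, 3 or 5 (up to 0.016).

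**Figure D1:**
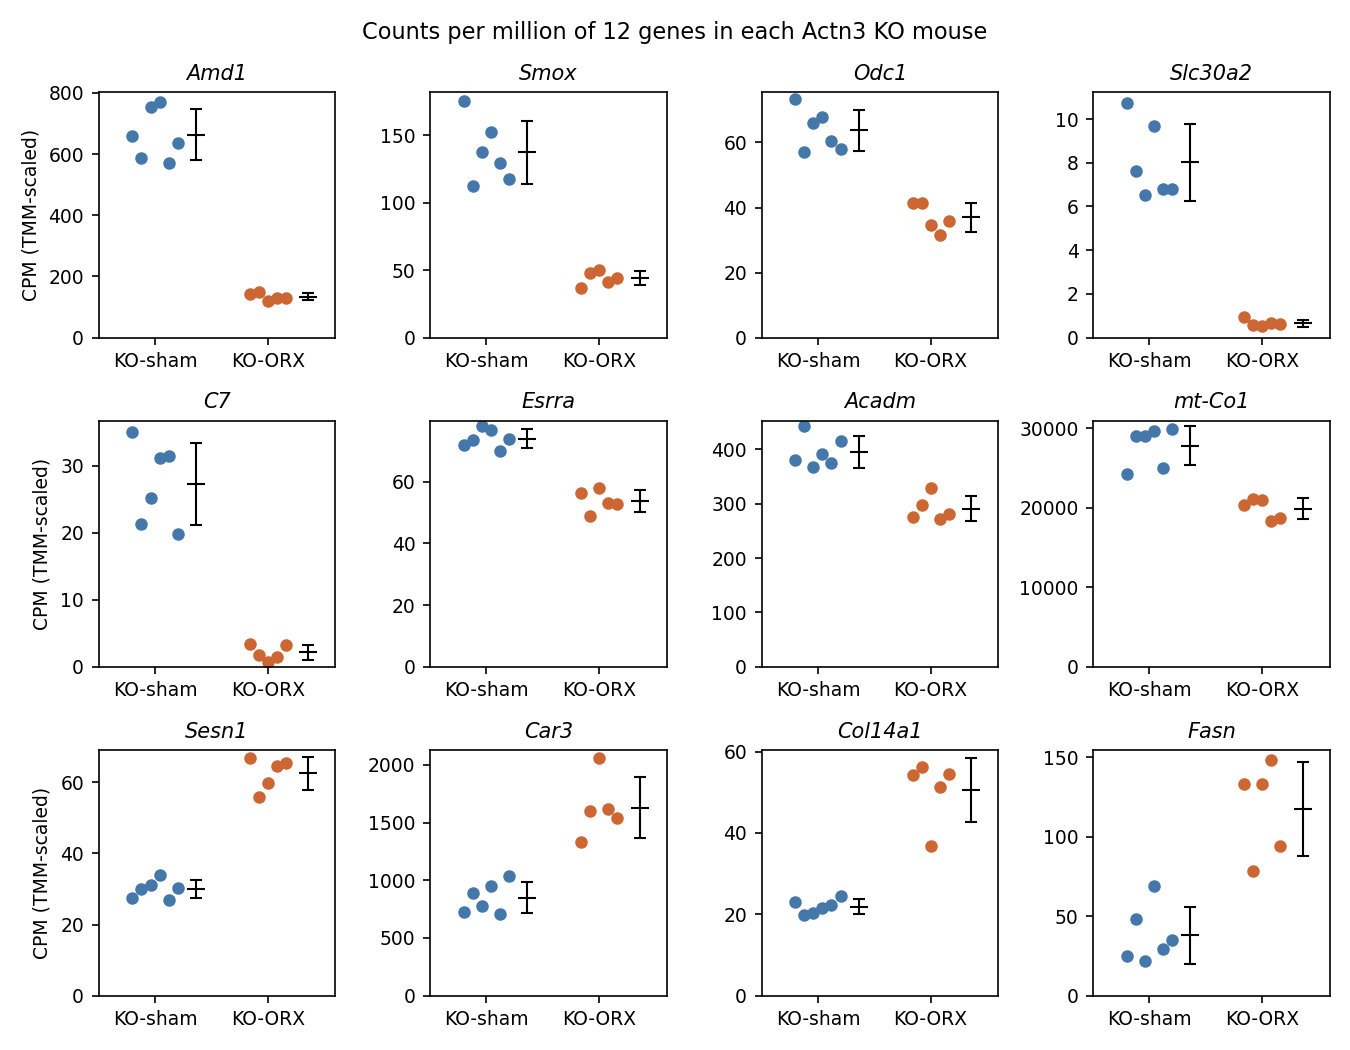
Each point is 1 mouse, with TMM-scaled CPM on a linear axis from 0, for 6 KO-sham (blue) and 5 KO-ORX (orange) mice, and the bar beside each group is the mean ± SD. In each of the 12 genes plotted the groups do not overlap, with KO-ORX lower for *Amd1* (121 to 149 against 571 to 770.3 CPM) and higher for *Sesn1*.

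Some extracellular matrix genes rose. In a list of 38 measured genes of collagens and matrix, 9 rose (23.7%, against 1.99% of all genes) and 0 fell, with a median of 0.41 (0.51 with scaling by total counts, under which 15 rose and 0 fell). *Col14a1* (ENSMUSG00000022371), a fibril-associated collagen, ranged from 19.9 to 24.6 CPM in KO-sham mice (median 21.8) and was 54.2, 56.1, 36.9, 51.3 and 54.6 CPM in KO-ORX mice 1 to 5. KO-ORX mouse 3 was the lowest of its group and still above KO-sham (log2 fold change 1.21 ± 0.11, q = 1.6e-08). *Postn*, periostin, rose by 0.84 ± 0.098 (q = 1.6e-06) without overlap. *Lum*, lumican, rose by 0.57 ± 0.093 (q = 2.0e-04) without overlap. *Col6a3*, a chain of collagen VI, rose by 0.56 ± 0.10 (q = 7.0e-04), *Col15a1*, a collagen of basement membrane zones, by 0.53 ± 0.098 (q = 8.1e-04) and *Mmp2*, a gelatinase, by 0.41 ± 0.082 (q = 0.0018). In *Col6a3* and *Mmp2* KO-ORX mouse 3 lay within the KO-sham range. *Col1a1*, a chain of collagen I, ranged from 87.1 to 428 CPM in KO-sham mice (median 133) and was 1755, 843, 216, 352 and 208 CPM in KO-ORX mice 1 to 5. KO-ORX mice 1 and 2 stood above all KO-sham mice, mice 3, 4 and 5 did not, and the gene missed the threshold (log2 fold change 1.89 ± 0.49, q = 0.011). Without KO-ORX mouse 1 its q was 0.11. *Fn1*, fibronectin (log2 fold change 0.62 ± 0.17, q = 0.018), *Sparc* (log2 fold change 0.53 ± 0.21, q = 0.12) and *Col3a1* (log2 fold change 0.24 ± 0.12, q = 0.24) also missed it. The list's count depended on KO-ORX mouse 3, without which 17 of 38 genes passed. The list does not hold all such genes. Of 32 other collagen and laminin chains, chosen after values were seen, 4 rose (*Col11a2*, *Lamb2*, *Col18a1* and *Col24a1*) and 2 fell, *Lamc3* (log2 fold change −0.96 ± 0.20, q = 0.0028) and *Col4a4* (log2 fold change −0.44 ± 0.10, q = 0.0056). The calls of *Col18a1* (in the absence of KO-sham mouse 2, 3, 4 or 6 or KO-ORX mouse 1, 2, 4 or 5), *Col24a1* (of KO-sham mouse 1, 3, 4, 5 or 6 or KO-ORX mouse 1, 2, 4 or 5) and *Col4a4* (of KO-sham mouse 1 or 3 or KO-ORX mouse 1, 2, 3 or 5) were lost, with q up to 0.033, 0.042 and 0.019. With scaling by total counts *Col4a4* also lost its call (q = 0.036). With the KO groups alone *Lamb2* (q = 0.012), *Col18a1* (q = 0.017), *Col24a1* (q = 0.025) and *Col4a4* (q = 0.025) did.

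Among markers of fibroblasts and of tendon 1 rose in each class, and neither class passed by its share of counts after adjustment. The 10 measured of 10 markers of fibroblasts and fibro-adipogenic cells together took 0.300 to 0.430% of counts in KO-sham mice (median 0.317%) and 0.667, 0.514, 0.291, 0.392 and 0.363% in KO-ORX mice 1 to 5. KO-ORX mice 1 and 2 were above all KO-sham mice and mouse 3 below them (exact permutation p = 0.11, adjusted 0.27). Of these markers, 1 rose (*Lum*), none was at 0 in a library, and *Gsn* had most counts (log2 fold change −0.27 ± 0.074, q = 0.017). The 7 tendon markers took 0.0215 to 0.0676% in KO-sham and 0.102, 0.0775, 0.0388, 0.0749 and 0.0486% in KO-ORX mice (exact permutation p = 0.035, adjusted 0.20). KO-sham mouse 5 was the high mouse of its group. *Thbs4* had most counts among them (log2 fold change 0.51 ± 0.24, q = 0.19), and *Fmod*, fibromodulin, was the marker that rose (log2 fold change 1.23 ± 0.26, q = 0.0027), a call lost without KO-ORX mouse 1 (q = 0.014). The part of fibroblast and tendon tissue in the matrix result was not tested. In muscle homogenate, fewer or more cells of a type and less or more RNA per cell cannot be told apart.

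Some genes of fatty acid synthesis rose, and markers of fat cells missed the threshold. Of 27 genes of adipocytes and lipogenesis, 6 rose and 2 fell (29.6% called, against 5.57% of all genes). The median was 0.07 (0.17 with scaling by total counts, under which 6 rose and 0 fell). *Fasn* (ENSMUSG00000025153), fatty acid synthase, ranged from 22.0 to 69.2 CPM in KO-sham mice (median 32.0) and was 133, 78.7, 133, 148 and 94.2 CPM in KO-ORX mice 1 to 5. All KO-ORX mice were above the highest KO-sham mouse (log2 fold change 1.62 ± 0.28, q = 3.1e-04). *Elovl6*, which lengthens fatty acids, ranged from 1.84 to 2.58 CPM in KO-sham mice (median 2.38) and was 5.58, 3.69, 7.85, 4.93 and 4.61 CPM in KO-ORX mice 1 to 5. The groups did not overlap (log2 fold change 1.21 ± 0.20, q = 2.5e-04). *Scd1*, a desaturase, ranged from 146 to 315 CPM in KO-sham mice (median 212) and was 494, 284, 277, 606 and 532 CPM in KO-ORX mice 1 to 5. KO-ORX mice 2 and 3 were within the KO-sham range, and the other 3 above it (log2 fold change 1.00 ± 0.22, q = 0.0037). *Acaca*, acetyl-CoA carboxylase, rose by 0.58 ± 0.10 (q = 3.8e-04) and *Acly*, ATP citrate lyase, by 0.61 ± 0.12 (q = 0.0015), both without overlap, and *Car3*, described above, was the sixth rise. The falls, named after their values were seen, were *Dgat2*, an acyltransferase (log2 fold change −0.59 ± 0.13, q = 0.0045), lost in the absence of KO-sham mouse 2 or 4 or KO-ORX mouse 1, 4 or 5 (q up to 0.018), and *Plin5*, a lipid droplet protein (log2 fold change −0.70 ± 0.17, q = 0.0083), lost in that of KO-sham mouse 1, 2, 4, 5 or 6 or KO-ORX mouse 1, 2, 4 or 5 (up to 0.037). Without KO-ORX mouse 1 the list gave 5 calls in place of 8. The call of *Scd1* was lost in the absence of KO-sham mouse 1, 3 or 6 or KO-ORX mouse 1, 4 or 5, with q up to 0.019. None of the 8 measured adipocyte markers passed, and together they took 0.0263 to 0.0602% of counts in KO-sham mice (median 0.0339%) and 0.0338, 0.0361, 0.05002, 0.0403 and 0.0509% in KO-ORX mice 1 to 5 (exact permutation p = 0.60, adjusted 0.80). *Fabp4* had most counts (log2 fold change 0.00 ± 0.097, q = 0.99), and none was at 0. The secreted adipocyte proteins gave 0.27 ± 0.27 (q = 0.59) for *Adipoq* and −0.03 ± 0.27 (q = 0.97) for *Cfd*, and the lipid droplet coat gene *Plin1* gave 0.08 ± 0.25 (q = 0.89).

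Some genes of fatty acid oxidation fell. Of 28 genes of fatty acid uptake and beta-oxidation, 14 fell and 0 rose (50% called, against 5.57% of all genes). A negative log2 fold change was found in 27, against 8219 of all 17514 genes. The median was −0.33 (−0.22 with scaling by total counts, under which 7 fell). *Acsl1*, which activates long-chain fatty acids, ranged from 327 to 424 CPM in KO-sham mice (median 359.9) and was 232, 232, 277, 225 and 232 CPM in KO-ORX mice 1 to 5. KO-ORX mouse 3 was the highest of its group, and all 5 were below KO-sham (log2 fold change −0.61 ± 0.079, q = 6.5e-06). *Acadm* (ENSMUSG00000062908), medium-chain acyl-CoA dehydrogenase, ranged from 368 to 444 CPM in KO-sham mice (median 385) and was 275, 298, 329, 271 and 280.5 CPM in KO-ORX mice 1 to 5. The groups did not overlap (log2 fold change −0.44 ± 0.070, q = 1.3e-04). *Slc25a20*, the carnitine-acylcarnitine carrier, fell by 0.46 ± 0.084 (q = 6.9e-04) without overlap. *Mlycd*, malonyl-CoA decarboxylase, fell by 0.43 ± 0.070 (q = 2.1e-04), *Etfdh*, which passes electrons from beta-oxidation to ubiquinone, by 0.37 ± 0.067 (q = 5.1e-04) and *Hadh*, a dehydrogenase of short chains, by 0.38 ± 0.069 (q = 5.2e-04). *Acadl*, the long-chain dehydrogenase, gave −0.42 ± 0.087 (q = 0.0022) and lost its call without KO-ORX mouse 4 (q = 0.011). The fatty acid transporter *Cd36* (log2 fold change −0.25 ± 0.081, q = 0.046), lipoprotein lipase *Lpl* (log2 fold change −0.32 ± 0.10, q = 0.041) and the muscle carnitine palmitoyltransferase *Cpt1b* (log2 fold change −0.32 ± 0.13, q = 0.13) missed the threshold. So did *Pdk4*, the kinase that closes pyruvate dehydrogenase (log2 fold change −0.62 ± 0.24, q = 0.11), whose lowest level was in KO-ORX mouse 5. The list's count was lowest without KO-ORX mouse 4, at 9 of 28.

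The citric acid cycle and pyruvate entry gave 9 falls and 0 rises among 30 genes (30% called, against 5.57% of all genes). The median was −0.19 (−0.09 with scaling by total counts, under which 1 fell). *Pdhx*, a component of pyruvate dehydrogenase, fell by 0.39 ± 0.055 (q = 2.5e-05) without overlap. *Idh3g*, a subunit of isocitrate dehydrogenase, fell by 0.28 ± 0.048 (q = 3.1e-04), *Dlat*, the acetyltransferase of pyruvate dehydrogenase, by 0.33 ± 0.059 (q = 4.5e-04) and its catalytic subunit gene *Pdha1* by 0.27 ± 0.052 (q = 0.0011). *Mpc2*, of the mitochondrial pyruvate carrier, gave −0.34 ± 0.068 (q = 0.0014) and *Dlst*, of oxoglutarate dehydrogenase, −0.29 ± 0.058 (q = 0.0017). Citrate synthase, *Cs*, ranged from 554 to 707 CPM in KO-sham mice (median 591) and was 520.4, 521, 540.2, 508 and 477 CPM in KO-ORX mice 1 to 5. All KO-ORX mice were below KO-sham, by a small step (log2 fold change −0.24 ± 0.059, q = 0.0074), and the call was lost in the absence of KO-sham mouse 1, 2, 3 or 6 or KO-ORX mouse 1, 2, 4 or 5 (q up to 0.030). *Idh2* gave −0.12 ± 0.11 (q = 0.55). Without KO-sham mouse 2 the list gave 6 calls.

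Some nuclear genes of the respiratory chain fell by small steps. In complex I, 8 of 36 subunit genes fell and 0 rose (22.2% called, against 5.57% of all genes). A negative log2 fold change was found in 35, against 8219 of all 17514 genes, and the median was −0.19. *Ndufa8* fell by 0.32 ± 0.052 (q = 2.2e-04), *Ndufa10* by 0.31 ± 0.053 (q = 3.5e-04), *Ndufv1* by 0.30 ± 0.061 (q = 0.0016) and *Ndufs4* by 0.38 ± 0.077 (q = 0.0019). *Ndufv2* (log2 fold change −0.31 ± 0.070, q = 0.0040) lost its call in the absence of KO-sham mouse 3 or 6 or KO-ORX mouse 1, 4 or 5 (q up to 0.019), and *Ndufa9* (log2 fold change −0.24 ± 0.057, q = 0.0063) in that of KO-sham mouse 2, 3, 4 or 6 or KO-ORX mouse 1, 2, 4 or 5 (q up to 0.028). *Ndufs1* missed the threshold (log2 fold change −0.20 ± 0.054, q = 0.015). In complexes III to V, 11 of 38 genes fell and 0 rose (28.9% called), with a median of −0.20. *Uqcrc1*, a core protein of complex III, ranged from 596 to 660.5 CPM in KO-sham mice (median 631) and was 499, 479, 519, 458 and 430.0 CPM in KO-ORX mice 1 to 5. There was no overlap (log2 fold change −0.41 ± 0.058, q = 3.5e-05). *Cyc1*, cytochrome c1, fell by 0.31 ± 0.058 (q = 8.3e-04), *Cox4i1* of complex IV by 0.33 ± 0.061 (q = 6.3e-04) and *Atp5a1*, the alpha subunit of ATP synthase, by 0.29 ± 0.056 (q = 0.0013). *Cox5b* gave −0.31 ± 0.061 (q = 0.0014), with KO-ORX mouse 3 within the KO-sham range. *Uqcrq* (log2 fold change −0.29 ± 0.066, q = 0.0046) lost its call in the absence of KO-sham mouse 2, 3, 4 or 6 or KO-ORX mouse 1, 2, 4 or 5 (q up to 0.022), and *Cox8b* gave −0.29 ± 0.11 (q = 0.072). With scaling by total counts both medians stayed negative (−0.09 and −0.10) with 3 and 2 falls, and without KO-sham mouse 2 complexes III to V gave 5. Complex I gave 5 without KO-sham mouse 3.

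Some transcripts of mitochondrial DNA also fell. Of 9 listed genes, 4 fell and 0 rose (44.4% called, against 5.57% of all genes). The median was −0.35 (−0.24 with scaling by total counts, under which 2 fell). *mt-Co1*, the catalytic subunit of complex IV, ranged from 24251 to 29928 CPM in KO-sham mice (median 29020.2) and was 20339, 21130.0, 20978, 18351 and 18762 CPM in KO-ORX mice 1 to 5. All 5 KO-ORX mice were below all KO-sham mice (log2 fold change −0.48 ± 0.067, q = 2.2e-05). *mt-Nd1*, of complex I, fell by 0.45 ± 0.091 (q = 0.0015), *mt-Nd5* by 0.39 ± 0.089 (q = 0.0049) and *mt-Cytb*, of complex III, by 0.37 ± 0.088 (q = 0.0058). The calls of *mt-Nd5* (in the absence of KO-sham mouse 3, 4 or 6 or KO-ORX mouse 1, 4 or 5) and of *mt-Cytb* (in that of KO-sham mouse 2, 3, 4 or 6 or KO-ORX mouse 1, 4 or 5) were lost, with q up to 0.020 and 0.025. Without KO-sham mouse 3 the list gave 2 calls. The ribosomal RNA gene *mt-Rnr2* overlapped between groups (log2 fold change −0.28 ± 0.12, q = 0.15). Among 18 regulators of mitochondria, 2 fell and 0 rose (11.1% called, median −0.09, or 0.02 with scaling by total counts). *Esrra* (ENSMUSG00000024955), the nuclear receptor ERR-alpha that drives oxidative genes, ranged from 69.8 to 78.2 CPM in KO-sham mice (median 73.7) and was 56.4, 48.8, 57.9, 53.2 and 52.9 CPM in KO-ORX mice 1 to 5. KO-ORX mice were lower and did not overlap with KO-sham (log2 fold change −0.46 ± 0.061, q = 1.3e-05). *Perm1*, a muscle coactivator that acts with PGC-1 and ERR, fell by 0.42 ± 0.076 (q = 5.1e-04). *Ppargc1a*, PGC-1alpha itself, gave −0.18 ± 0.075 (q = 0.13) and *Esrrg* −0.14 ± 0.098 (q = 0.39).

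Promoters of the falling oxidative genes were searched for the letters AAGGTCA, which read as TGACCTT on the other strand and which estrogen-related receptors bind, because *Esrra* fell with them. RefSeq entries of build GRCm38.p6 cover 250 bases before to 50 after the start of a gene, and 1550 of all 32851 entries (4.72%) held the letters on either strand. Of 14 falling genes of fatty acid uptake and beta-oxidation, 13 had an entry and 1 held them (7.69%), *Acadm*. Of 19 falling nuclear genes of complexes I to V, 14 had an entry and 1 held them (7.14%), *Atp5g3* (named after its match was seen), and of 9 falling genes of the citric acid cycle 8 had an entry and 0 held them. They were in 0 of the 8 entries among the 12 falls of smallest p and in 1 of 8 (12.5%) among the 12 rises, *Neu2*. The letters AGAACA, which read as TGTTCT on the other strand and are part of androgen response elements, were in 6233 of all entries (18.97%). They were in 0 of 8 entries of these falls, 1 of 8 of these rises (*AW551984*), 2 of 13 of fatty acid uptake and beta-oxidation (15.4%, *Hadh* and *Mlycd*), 2 of 14 of complexes I to V (14.3%, *Ndufs4* and *Ndufv2*) and 0 of 8 of the citric acid cycle. A match is a description and no test of binding. Matching promoters of the oxidative genes are shown with the letters of the estrogen-related receptor in capitals, for *Acadm* (chr3:153944594-153944893, minus strand) and *Atp5g3* (chr2:73911277-73911576, minus strand), each 5′ to 3′.
Acadm: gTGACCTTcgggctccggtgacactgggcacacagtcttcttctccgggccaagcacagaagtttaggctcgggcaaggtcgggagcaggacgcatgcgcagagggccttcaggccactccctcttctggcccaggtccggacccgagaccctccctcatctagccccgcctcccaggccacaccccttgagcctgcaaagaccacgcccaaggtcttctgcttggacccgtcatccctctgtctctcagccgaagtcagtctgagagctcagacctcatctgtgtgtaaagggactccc
Atp5g3: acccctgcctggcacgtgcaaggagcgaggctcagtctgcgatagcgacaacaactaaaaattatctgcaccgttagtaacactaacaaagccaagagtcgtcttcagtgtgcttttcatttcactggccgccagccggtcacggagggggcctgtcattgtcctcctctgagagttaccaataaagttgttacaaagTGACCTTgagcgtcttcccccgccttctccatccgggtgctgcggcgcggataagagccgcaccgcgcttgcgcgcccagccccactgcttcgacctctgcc

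Glycolysis and glycogen genes gave 1 rise and 5 falls among 36 genes (16.7% called, against 5.57% of all genes). A negative log2 fold change was found in 30, against 8219 of all 17514 genes. The median was −0.15 (−0.04 with scaling by total counts, under which 1 rose and 1 fell). *Slc16a3*, the lactate exporter MCT4, ranged from 156 to 227 CPM in KO-sham mice (median 164) and was 119, 103, 107, 106 and 103 CPM in KO-ORX mice 1 to 5. KO-sham mouse 1 was high, and the groups did not overlap (log2 fold change −0.69 ± 0.081, q = 1.6e-06). *Pgm1*, phosphoglucomutase, fell by 0.28 ± 0.056 (q = 0.0014), *Slc2a4*, the insulin-regulated glucose transporter GLUT4, by 0.35 ± 0.075 (q = 0.0030) and *Gys1*, glycogen synthase, by 0.27 ± 0.067 (q = 0.0088). The rise was *Ppp1r3d*, which targets a phosphatase to glycogen (log2 fold change 0.92 ± 0.16, q = 4.0e-04). *Slc2a4* lost its call in the absence of KO-ORX mouse 1 or 5 (q up to 0.011) and *Gys1* in that of KO-sham mouse 1, 3, 4, 5 or 6 or KO-ORX mouse 1, 2, 3, 4 or 5 (up to 0.032). Hexokinase 2, *Hk2* (log2 fold change −0.32 ± 0.093, q = 0.023), phosphofructokinase *Pfkm* (log2 fold change −0.15 ± 0.068, q = 0.16), glycogen phosphorylase *Pygm* (log2 fold change −0.18 ± 0.078, q = 0.15) and *Ldhb* (log2 fold change −0.42 ± 0.14, q = 0.049) missed the threshold.

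Genes of oxidant defence gave more falls than rises. Of 32 genes of oxidative stress and glutathione, 8 fell and 1 rose (28.1% called, against 5.57% of all genes). The median was −0.17 (−0.06 with scaling by total counts, under which 1 rose and 5 fell). *Mgst3*, a microsomal glutathione transferase, ranged from 249 to 305 CPM in KO-sham mice (median 268) and was 193, 183, 183, 178 and 175 CPM in KO-ORX mice 1 to 5. It was lower in every KO-ORX mouse (log2 fold change −0.58 ± 0.056, q = 6.5e-08). *Mgst1*, of the same family, fell by 1.12 ± 0.12 (q = 2.6e-07) without overlap. *Gpx3*, the plasma glutathione peroxidase, fell by 0.79 ± 0.13 (q = 2.4e-04), *Prdx5*, a peroxiredoxin, by 0.39 ± 0.059 (q = 7.6e-05) and *Sod2*, the mitochondrial superoxide dismutase, by 0.30 ± 0.047 (q = 1.0e-04). The rise was *Gstm2*, a cytosolic glutathione transferase, which ranged from 30.5 to 35.3 CPM in KO-sham mice (median 33.7) and was 47.5, 49.5, 58.7, 58.0 and 60.7 CPM in KO-ORX mice 1 to 5. All KO-ORX mice were above KO-sham (log2 fold change 0.71 ± 0.12, q = 2.0e-04). *Cat*, catalase (log2 fold change −0.25 ± 0.088, q = 0.062), and the secreted dismutase *Sod3* (log2 fold change 0.59 ± 0.26, q = 0.15) missed the threshold. Among purine and creatine genes 1 rose and 2 fell of 21 (14.3% called, median −0.09, or 0.02 with scaling by total counts, under which 2 rose and 1 fell). The mitochondrial creatine kinase gene *Ckmt2* ranged from 1072 to 1274 CPM in KO-sham mice (median 1189) and was 783, 820.3, 848, 638 and 622 CPM in KO-ORX mice 1 to 5. KO-ORX mice 4 and 5 were lowest, and the groups did not overlap (log2 fold change −0.67 ± 0.083, q = 4.0e-06). *Ckm*, its cytosolic partner in muscle, gave −0.09 ± 0.078 (q = 0.53). *Adssl1*, an adenylosuccinate synthase, gave −0.24 ± 0.057 (q = 0.0051) and *Ampd3*, an AMP deaminase, 0.38 ± 0.082 (q = 0.0033), and these calls were lost in the absence of KO-ORX mouse 1, 2 or 5 (q up to 0.020) and of KO-sham mouse 2 or 3 or KO-ORX mouse 1 or 5 (up to 0.014).

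Contractile genes gave calls in both directions. Of 13 fast sarcomere genes 3 fell and 0 rose (23.1% called, against 5.57% of all genes). The median was −0.11, or 0.00 and 0 calls with scaling by total counts. *Tnni2*, fast troponin I, ranged from 7429 to 8625 CPM in KO-sham mice (median 7889) and was 6629, 6652, 7038, 6472 and 6601 CPM in KO-ORX mice 1 to 5. Every KO-ORX mouse was below every KO-sham mouse, by a small step (log2 fold change −0.26 ± 0.049, q = 7.3e-04). *Myh1*, the myosin of fast IIX fibres, ranged from 2664 to 4322 CPM in KO-sham mice (median 3193) and was 2545, 2378, 2630.0, 1833 and 1509.8 CPM in KO-ORX mice 1 to 5. KO-ORX mice 4 and 5 were lowest (log2 fold change −0.61 ± 0.15, q = 0.0074), and the call was lost in the absence of KO-sham mouse 1, 2 or 3 or KO-ORX mouse 2, 4 or 5 (q up to 0.031). *Tnnt3*, fast troponin T, gave −0.20 ± 0.049 (q = 0.0087) and was lost in the absence of KO-sham mouse 1, 2, 3, 4 or 6 or KO-ORX mouse 1, 2, 4 or 5 (up to 0.029), and without KO-sham mouse 1 the list gave 1 call. *Myh4* (log2 fold change −0.11 ± 0.12, q = 0.61) and *Myh2*, of IIA fibres (log2 fold change −0.20 ± 0.15, q = 0.46), missed the threshold. None of 12 slow sarcomere genes passed in edgeR, and none with DESeq2 (median 0.22). *Myh7*, the slow myosin, gave 0.32 ± 0.19 (q = 0.33) and slow troponin T, *Tnnt1*, 0.24 ± 0.18 (q = 0.46), with KO-ORX mouse 2 highest in both. Of 11 genes of developing or stretched sarcomeres 3 rose and 0 fell (27.3% called), with a median of 0.42. *Actc1*, cardiac actin, which immature muscle uses, ranged from 18.1 to 38.0 CPM in KO-sham mice (median 28.3) and was 53.86, 99.6, 60.1, 65.9 and 78.1 CPM in KO-ORX mice 1 to 5. All KO-ORX mice were higher than KO-sham (log2 fold change 1.34 ± 0.20, q = 4.3e-05). *Myl4*, the embryonic light chain, rose by 1.01 ± 0.18 (q = 6.7e-04) and *Mybph*, a myosin-binding protein, by 1.16 ± 0.27 (q = 0.0047), and the call of *Mybph* was lost in the absence of KO-sham mouse 2, 3 or 6 or KO-ORX mouse 2 or 4 (q up to 0.015). Of the exon bases of *Mybph*, 49.9% are also exon of *Adora1*, which is read from the other strand. *Ankrd1*, a stretch-responsive ankyrin protein, gave 0.43 ± 0.25 (q = 0.31) with KO-ORX mouse 1 apart at 28.0 CPM.

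At the Z-disc 4 of 25 genes fell and 0 rose (median −0.08, or 0.03 with scaling by total counts, under which 0 rose and 2 fell). *Myoz1*, calsarcin 2, which binds alpha-actinin and calcineurin, ranged from 1846 to 2249 CPM in KO-sham mice (median 2026) and was 1466, 1664, 1717, 1520.2 and 1633 CPM in KO-ORX mice 1 to 5. The groups did not overlap (log2 fold change −0.36 ± 0.055, q = 1.0e-04). *Pdlim5*, a scaffold of PDZ and LIM domains, fell by 0.43 ± 0.069 (q = 1.5e-04), *Des*, desmin, by 0.28 ± 0.061 (q = 0.0034) and *Tcap*, telethonin, by 0.38 ± 0.091 (q = 0.0060). *Des* was lost in the absence of KO-ORX mouse 1 or 5 (q up to 0.013) and *Tcap* in that of KO-sham mouse 2, 3, 4 or 6 or KO-ORX mouse 1, 4 or 5 (up to 0.025). *Ldb3* (log2 fold change −0.08 ± 0.062, q = 0.49) and myotilin, *Myot* (log2 fold change −0.09 ± 0.064, q = 0.41), missed the threshold, and without KO-ORX mouse 1 the list gave 2 calls. Of 29 calcium release and reuptake genes 2 rose (6.90%, against 5.57% of all genes) and 0 fell, with a median of −0.02 (0.09 with scaling by total counts, under which 6 rose and 0 fell). *Casq2*, cardiac and slow calsequestrin, rose by 0.45 ± 0.11 (q = 0.0092) and the inositol trisphosphate receptor gene *Itpr3* by 0.59 ± 0.15 (q = 0.0088). These calls were lost in the absence of KO-sham mouse 1, 3, 4 or 5 or KO-ORX mouse 1, 2 or 3 (q up to 0.029) and of KO-sham mouse 2, 3, 4 or 6 or KO-ORX mouse 1, 2, 4 or 5 (up to 0.048). The release channel *Ryr1* (log2 fold change 0.23 ± 0.088, q = 0.098), the pump *Atp2a1* (log2 fold change 0.16 ± 0.080, q = 0.23), its inhibitor *Sln* (log2 fold change 0.71 ± 0.23, q = 0.042) and the buffer *Pvalb* (log2 fold change 0.07 ± 0.067, q = 0.57) missed the threshold. Calcineurin and NFAT genes gave 2 falls and 0 rises of 17 (median 0.05, or 0.15 with scaling by total counts, under which 1 rose and 1 fell). *Rcan2*, a regulator of calcineurin, fell by 0.66 ± 0.078 (q = 1.8e-06) without overlap. *Mef2c*, a transcription factor of muscle, fell by 0.22 ± 0.045 (q = 0.0018), and *Rcan1* gave −0.39 ± 0.14 (q = 0.080) and the catalytic subunit gene *Ppp3ca* 0.19 ± 0.052 (q = 0.020).

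Genes of muscle loss gave more falls than rises with TMM scaling, as did all genes, of which 5.57% were called. Among 20 atrophy ubiquitin ligases and FOXO factors 1 rose and 3 fell, with a median of −0.10 (0.01 with scaling by total counts, under which 1 rose and 1 fell). *Fbxo32*, the ligase atrogin-1, ranged from 201 to 355 CPM in KO-sham mice (median 230.0) and was 153, 158, 184, 187 and 174 CPM in KO-ORX mice 1 to 5. It was lower in all KO-ORX mice (log2 fold change −0.52 ± 0.11, q = 0.0031), and without KO-ORX mouse 1 q was 0.012. *Trim63*, the ligase MuRF1, ranged from 226 to 298 CPM in KO-sham mice (median 245) and was 239, 189, 229, 216 and 215 CPM in KO-ORX mice 1 to 5. Its groups overlapped (log2 fold change −0.22 ± 0.093, q = 0.14). *Trim54*, MuRF3, fell by 0.36 ± 0.052 (q = 3.7e-05) and *Fbxo21* by 0.38 ± 0.086 (q = 0.0041), the latter lost in the absence of KO-sham mouse 1 or KO-ORX mouse 1, 4 or 5 (q up to 0.019). *Foxo3*, a transcription factor of catabolic genes, ranged from 20.5 to 30.3 CPM in KO-sham mice (median 20.9) and was 43.3, 39.5, 26.8, 34.4 and 32.8 CPM in KO-ORX mice 1 to 5. KO-ORX mouse 3 was within the KO-sham range and the other 4 above it (log2 fold change 0.62 ± 0.12, q = 0.0014). *Foxo1* gave 0.34 ± 0.27 (q = 0.48), highest in KO-ORX mice 1 and 2, and without KO-ORX mouse 1 the list gave 2 calls. In the proteasome 3 of 39 genes (7.69%) fell and 0 rose (median −0.06, or 0.05 with scaling by total counts, under which 0 rose and 1 fell). *Psmd8* of the regulatory particle ranged from 138 to 169 CPM in KO-sham mice (median 155) and was 121, 99.0, 95.1, 103 and 103 CPM in KO-ORX mice 1 to 5. No KO-ORX mouse reached KO-sham (log2 fold change −0.57 ± 0.058, q = 1.4e-07). The activator gene *Psme4* fell by 0.32 ± 0.048 (q = 6.8e-05) and the ATPase gene *Psmc1* by 0.18 ± 0.041 (q = 0.0043), the latter lost in the absence of KO-sham mouse 3 or 6 or KO-ORX mouse 2, 4 or 5 (q up to 0.017), and *Psma1* gave −0.06 ± 0.051 (q = 0.51). Without KO-ORX mouse 3 the list gave 5 calls. Among 33 autophagy and lysosome genes 4 fell and 0 rose (median 0.00, −0.01 with DESeq2, and 0.11 with scaling by total counts, under which 1 rose and 1 fell). *Map1lc3a*, an LC3 protein of autophagosomes, ranged from 113 to 141 CPM in KO-sham mice (median 124) and was 78.1, 86.6, 89.6, 79.3 and 78.9 CPM in KO-ORX mice 1 to 5. The groups were apart (log2 fold change −0.60 ± 0.058, q = 7.6e-08). *Sqstm1*, the receptor p62, fell by 0.31 ± 0.062 (q = 0.0014), the protease gene *Ctsd* by 0.25 ± 0.051 (q = 0.0018) and *Gabarapl1* by 0.27 ± 0.065 (q = 0.0071), the last lost in the absence of KO-sham mouse 2, 4, 5 or 6 or KO-ORX mouse 1, 2, 3 or 5 (q up to 0.026). *Map1lc3b* gave 0.01 ± 0.052 (q = 0.91), *Bnip3* −0.21 ± 0.061 (q = 0.023) and *Ctsl* 0.06 ± 0.057 (q = 0.56).

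Growth signalling showed inhibitors among its rises. Of 36 genes of IGF1, Akt and mTOR signalling 4 rose and 0 fell (11.1% called, against 5.57% of all genes). The median was 0.10 (0.21 with scaling by total counts, under which 7 rose and 0 fell). Beside *Sesn1*, they included *Grb10*, an adaptor that restrains the insulin receptor, which ranged from 40.1 to 59.8 CPM in KO-sham mice (median 46.8) and was 80.7, 78.4, 90.2, 65.7 and 72.1 CPM in KO-ORX mice 1 to 5. All KO-ORX mice were above KO-sham (log2 fold change 0.69 ± 0.10, q = 4.6e-05). *Igfbp5*, which binds IGFs, rose by 0.51 ± 0.10 (q = 0.0016) and *Sesn3* by 0.31 ± 0.068 (q = 0.0037), the latter lost in the absence of KO-sham mouse 2, 3, 4 or 6 or KO-ORX mouse 2 or 4 (q up to 0.016). *Igf1* gave 0.18 ± 0.11 (q = 0.34), *Eif4ebp1*, a repressor of translation, −0.12 ± 0.082 (q = 0.40) and *Ddit4*, a stress-induced inhibitor of mTORC1, −0.02 ± 0.67 (q = 0.99). Among 31 genes of myostatin, activin and BMP signalling 1 fell (3.23%, against 5.57% of all genes called) and 0 rose (median 0.07, or 0.18 with scaling by total counts, under which 0 rose and 0 fell). That was *Smad3*, which carries the myostatin signal (log2 fold change −0.35 ± 0.079, q = 0.0040), and it was lost in the absence of KO-sham mouse 1 or 2 or KO-ORX mouse 2, 4 or 5 (q up to 0.014). Myostatin, *Mstn*, ranged from 45.6 to 75.5 CPM in KO-sham mice (median 62.0) and was 69.5, 74.5, 49.9, 59.9 and 68.9 CPM in KO-ORX mice 1 to 5. The groups overlapped throughout (log2 fold change 0.06 ± 0.11, q = 0.82), and follistatin, *Fst*, gave −0.03 ± 0.16 (q = 0.95). Of 23 steroid receptors and cofactors 3 rose and 2 fell (21.7% called, against 5.57% of all genes). The median was −0.03 (0.07 with scaling by total counts, under which 4 rose and 1 fell). *Esr1*, estrogen receptor alpha, ranged from 34.5 to 44.8 CPM in KO-sham mice (median 40.3) and was 47.0, 46.8, 52.5, 49.9 and 52.2 CPM in KO-ORX mice 1 to 5. All KO-ORX mice were above KO-sham (log2 fold change 0.33 ± 0.067, q = 0.0018). *Tgfb1i1*, a coactivator of steroid receptors, rose by 0.70 ± 0.16 (q = 0.0050). *Rxrg*, a retinoid receptor, fell by 0.31 ± 0.072 (q = 0.0058) beside *Esrra*. *Tgfb1i1* was lost in the absence of KO-sham mouse 1, 2 or 3 or KO-ORX mouse 1, 4 or 5 (q up to 0.026) and *Rxrg* in that of KO-sham mouse 1, 3, 4 or 6 or KO-ORX mouse 1, 2, 4 or 5 (up to 0.022). Without KO-sham mouse 1 this list gave 3 calls. The glucocorticoid receptor gene *Nr3c1* gave 0.16 ± 0.048 (q = 0.032). None of 18 glucocorticoid-responsive genes passed in edgeR or with DESeq2 (median 0.02). *Fkbp5* ranged from 19.3 to 69.3 CPM in KO-sham mice (median 20.3) and was 56.2, 56.6, 7.27, 7.66 and 8.97 CPM in KO-ORX mice 1 to 5. KO-ORX mice 1 and 2 were high and mice 3 to 5 low, and the groups overlapped (log2 fold change −0.36 ± 0.55, q = 0.75). *Zbtb16* (log2 fold change 0.25 ± 0.25, q = 0.59) and *Tsc22d3* (log2 fold change 0.07 ± 0.24, q = 0.90) were also highest in KO-ORX mice 1 and 2.

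Myogenic and synaptic genes gave calls in both directions. Of 19 satellite cell and myogenic factors 2 rose and 2 fell (21.1% called, against 5.57% of all genes). The median was 0.26 (0.36 with scaling by total counts, under which 4 rose and 0 fell). Myogenin, *Myog*, ranged from 3.39 to 5.01 CPM in KO-sham mice (median 4.09) and was 5.68, 10.5, 5.85, 6.76 and 5.72 CPM in KO-ORX mice 1 to 5. KO-ORX mouse 2 was high (log2 fold change 0.71 ± 0.15, q = 0.0026), and without it q was 0.0101. *Tceal7* ranged from 42.2 to 138 CPM in KO-sham mice (median 85.3) and was 219, 177, 184, 170.1 and 146 CPM in KO-ORX mice 1 to 5. It rose without overlap (log2 fold change 1.05 ± 0.17, q = 1.8e-04). *Myf6*, the factor MRF4, fell by 0.22 ± 0.056 (q = 0.0095) and *Bhlhe41* by 0.54 ± 0.11 (q = 0.0026), the former lost in the absence of KO-sham mouse 1, 3, 4 or 6 or KO-ORX mouse 1, 2, 3, 4 or 5 (q up to 0.029) and the latter without KO-ORX mouse 5 (q = 0.0105). *Pax7* gave 0.20 ± 0.22 (q = 0.62) and *Myod1* 0.26 ± 0.16 (q = 0.34), and without KO-ORX mouse 1 the list gave 2 calls. The 5 satellite cell markers together took 0.00308 to 0.00335% of counts in KO-sham mice (median 0.00329%) and 0.00412, 0.00398, 0.00362, 0.00420 and 0.00382% in KO-ORX mice 1 to 5. Every KO-ORX mouse was above every KO-sham mouse (exact permutation p = 0.0022, the smallest that 462 arrangements allow, adjusted 0.035), and this was the 1 of 16 classes below 0.05. Such shares are of total counts, without TMM scaling. By total counts the median log2 fold change of all genes was 0.12 in place of 0.01, so that a typical gene also rose. With any 1 of the 11 KO mice left out 0 classes passed. Fewer arrangements then bound p, so that 1 class alone could not pass after adjustment. Leaving out mice therefore cannot show whether the call rests on single mice. None of the 5 passed alone, none was at 0, and *Chodl* had most counts (log2 fold change 0.31 ± 0.082, q = 0.014). With TMM scaling the groups overlapped for *Chodl* (18.6 CPM in KO-sham mouse 6 and 17.0 CPM in KO-ORX mouse 3). Among 25 genes of the neuromuscular junction and denervation 1 rose and 2 fell (12% called, against 5.57% of all genes). The median was 0.14, or 0.25 with scaling by total counts, under which 5 rose and 0 fell. *Musk*, the kinase that organises the synapse, ranged from 18.2 to 25.3 CPM in KO-sham mice (median 21.4) and was 17.3, 19.6, 9.56, 12.4 and 11.7 CPM in KO-ORX mice 1 to 5. KO-ORX mouse 2 was within the KO-sham range (log2 fold change −0.63 ± 0.15, q = 0.0067). *Ntf5*, a neurotrophin, fell by 0.54 ± 0.12 (q = 0.0040) and *Chrnb1*, the beta subunit of the acetylcholine receptor, rose by 0.35 ± 0.084 (q = 0.0069). These calls were lost in the absence of KO-sham mouse 1, 2 or 4 or KO-ORX mouse 3, 4 or 5 for *Musk* (q up to 0.027), of KO-sham mouse 6 or KO-ORX mouse 2 or 5 for *Ntf5* (up to 0.014) and of KO-sham mouse 2, 4 or 6 or KO-ORX mouse 1, 4 or 5 for *Chrnb1* (up to 0.030). *Chrna1* gave 0.18 ± 0.13 (q = 0.40) and *Ngfr* 1.09 ± 0.35 (q = 0.044), and without KO-ORX mouse 5 the list gave 0 calls.

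Stress, clock and amino acid lists gave 4.76 to 7.69% of genes called, near the 5.57% of all genes. Heat shock proteins gave 2 falls and 0 rises of 26 (median −0.04, or 0.06 with scaling by total counts, under which 1 rose and 0 fell): the mitochondrial chaperone gene *Hspa9* fell by 0.24 ± 0.048 (q = 0.0013) and the small heat shock gene *Hspb8* by 0.29 ± 0.063 (q = 0.0027), the latter lost without KO-ORX mouse 5 (q = 0.011). *Hspa8* gave 0.06 ± 0.061 (q = 0.61), *Hspa1a* 0.49 ± 0.31 (q = 0.35), *Hspb1* −0.05 ± 0.082 (q = 0.79) and *Cryab* −0.06 ± 0.095 (q = 0.75). Of 19 clock genes 1 fell, *Bhlhe41* again, and 0 rose (median 0.06; by total counts 0 rose and 0 fell), and *Arntl*, *Dbp*, *Per2* and *Nr1d1* gave q of 0.94, 0.97, 0.39 and 0.31. Of 20 genes of the amino acid response 1 rose and 0 fell (median 0.00, and −0.01 with DESeq2). It was *Slc7a5*, a transporter of large neutral amino acids (log2 fold change 0.95 ± 0.21, q = 0.0040), with 12 to 25 counts in a KO-sham library, and the call was lost in the absence of KO-sham mouse 4 or 6 or KO-ORX mouse 1 or 4 (q up to 0.021). *Atf4* gave −0.18 ± 0.057 (q = 0.043) and *Phgdh* −0.01 ± 0.18 (q = 0.99). Of 26 amino acid catabolism genes 2 fell and 0 rose (median −0.09, or 0.02 with scaling by total counts, under which 0 rose and 1 fell). Proline dehydrogenase, *Prodh* (log2 fold change −0.94 ± 0.22, q = 0.0061), was lost in the absence of KO-sham mouse 1, 2 or 4 or KO-ORX mouse 1, 3, 4 or 5 (q up to 0.025) and *Acad8* (log2 fold change −0.22 ± 0.055, q = 0.0087) in that of KO-sham mouse 1, 2 or 6 or KO-ORX mouse 1, 4 or 5 (up to 0.039). *Bcat2*, which starts branched-chain catabolism, ranged from 31.9 to 36.4 CPM in KO-sham mice (median 34.2) and was 23.7, 31.1, 29.5, 26.8 and 25.4 CPM in KO-ORX mice 1 to 5. The groups did not overlap, and the gene still missed the threshold (log2 fold change −0.32 ± 0.083, q = 0.012). *Glul* gave 0.26 ± 0.27 (q = 0.61) and *Gpt2* −0.22 ± 0.13 (q = 0.33). Of 21 immediate early genes 1 rose and 0 fell (median 0.22; by total counts 2 rose and 0 fell), *Nr4a3*, an orphan nuclear receptor (log2 fold change 1.32 ± 0.32, q = 0.0077), lost in the absence of KO-sham mouse 1, 2, 3, 4 or 6 or KO-ORX mouse 1, 2 or 4 (q up to 0.034). *Fos* gave −0.46 ± 0.51 (q = 0.63) and *Egr1* 0.42 ± 0.48 (q = 0.64).

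**Figure D2:**
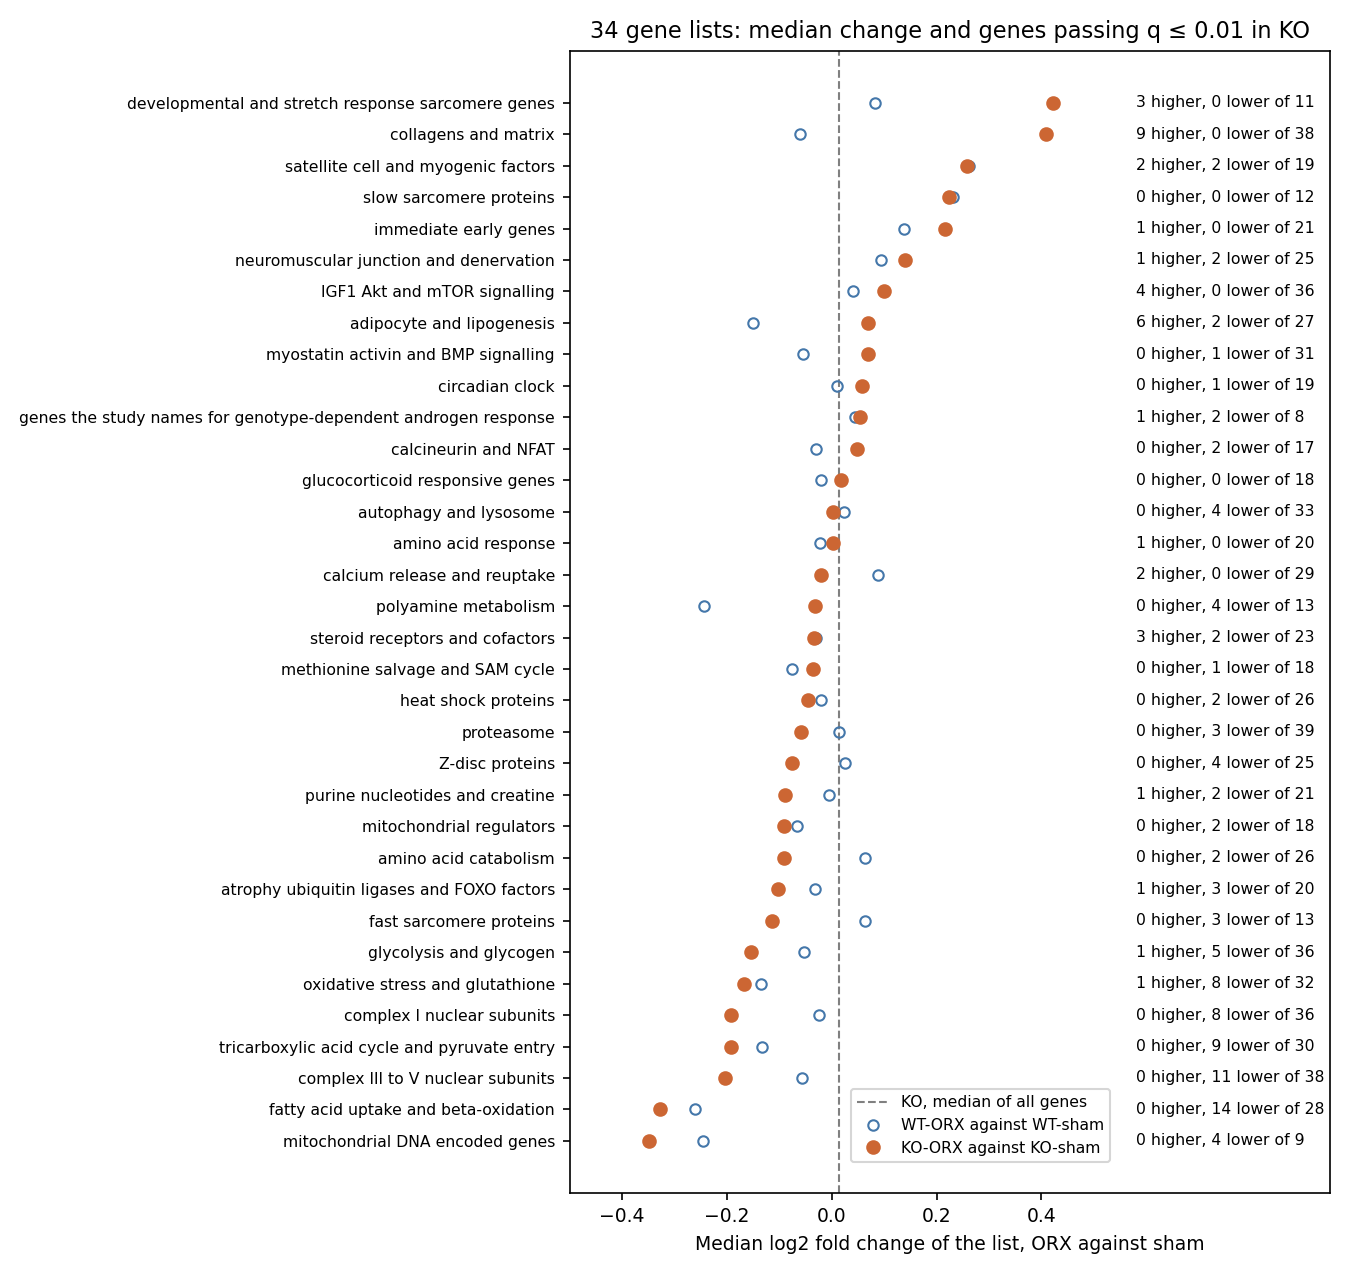
The median log2 fold change (ORX against sham) of each of 34 gene lists is shown for KO (filled) and WT (open), beside the KO median of all genes (dashed, 0.01), with the number of genes of each list at q of at most 0.01 in KO written at the right. In KO the medians lie between −0.35 for genes of mitochondrial DNA and 0.42 for developmental and stretch response sarcomere genes. The sign against 0 turns with scaling by total counts for 12 lists, which the text names with both values.

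Markers of the remaining cell types gave the following shares of counts, none with an adjusted p under 0.05. The 8 endothelial markers took 0.0279 to 0.0344% in KO-sham and 0.0271 to 0.0355% in KO-ORX mice, with 0 called and *Pecam1* highest in counts. The 8 smooth muscle and pericyte markers took 0.0880 to 0.102% and 0.0957 to 0.106%, with *Rgs5* highest in counts and 1 rise, *Notch3* (log2 fold change 0.46 ± 0.12, q = 0.0097), lost in the absence of KO-sham mouse 2, 3, 4 or 6 or KO-ORX mouse 1, 4 or 5 (q up to 0.043). The 10 macrophage markers took 0.0167 to 0.0275% and 0.0199 to 0.0250%, with *Lyz2* highest (log2 fold change −0.05 ± 0.11, q = 0.84). The 7 Schwann cell markers took 0.00685 to 0.0110% and 0.00683 to 0.0122%, with *Pmp22* highest (log2 fold change 0.08 ± 0.11, q = 0.75). The 6 erythroid markers took 0.0270 to 0.0680% and 0.0307 to 0.0557%, with *Hbb-bs* highest (log2 fold change 0.01 ± 0.25, q = 0.99). For T and NK cells 1 of 8 markers was in the table (*Cd3e*, log2 fold change 0.21 ± 0.21, q = 0.59), for B cells 2 of 6 (*Ighm* highest, log2 fold change −0.97 ± 0.30, q = 0.040) and for neutrophils 1 of 6 (*S100a9*, log2 fold change −0.35 ± 0.57, q = 0.76). *S100a9* and 1 of the B cell markers were at 0 in 1 KO library each. The markers that are not in the table were not analysed here.

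The same operation in WT mice gave 955 of 17514 genes (5.45%), 358 higher (2.04%) and 597 lower (3.41%), or 422 higher and 354 lower with scaling by total counts. Of the 955, 439 were among the 975 of KO, a share of 46.0% of the WT and 45.0% of the KO genes. All 439 had the same direction. The difference between the genotypes was tested as the interaction, which called 4 of 17514 genes (0.0228%) at q under 0.05, 3 higher (0.0171%) and 1 lower (0.00571%), and 1683 genes had an unadjusted p under 0.05. *Ttll7* (ENSMUSG00000036745), which adds glutamate chains to tubulin, ranged from 339 to 376 CPM in KO-sham mice (median 362) and was 241, 238, 239, 247 and 243 CPM in KO-ORX mice 1 to 5. It fell in KO by 0.58 ± 0.046 (q = 1.9e-09) without overlap and in WT with −1.12 (q = 1.7e-15), and the interaction was 0.53 ± 0.063 (q = 1.1e-04). *Spns2* (ENSMUSG00000040447), an exporter of sphingosine-1-phosphate, ranged from 20.9 to 29.8 CPM in KO-sham mice (median 26.4) and was 16.3, 14.7, 15.8, 14.1 and 13.2 CPM in KO-ORX mice 1 to 5. It fell in KO by 0.81 ± 0.098 (q = 2.8e-06), in WT with −1.58 (q = 1.6e-12), and the interaction was 0.76 ± 0.13 (q = 0.025). *Efcab6* (ENSMUSG00000022441), an EF-hand protein, fell in KO by 0.26 ± 0.056 (q = 0.0034) and gave 0.18 (q = 0.027) in WT, with an interaction of −0.44 ± 0.078 (q = 0.026). Its KO call was lost in the absence of KO-ORX mouse 1 or 2 (q up to 0.012). Its interaction call, the 1 lower of the 4, was lost with scaling by total counts and with libraries thinned to the smallest. The same held without KO-sham mouse 1, 3 or 6 or KO-ORX mouse 2, where 0 interactions were called lower. *Snora78*, a small nucleolar RNA, gave 0.42 ± 0.16 (q = 0.10) in KO and −0.94 (q = 1.9e-04) in WT, with an interaction of 1.36 ± 0.23 (q = 0.024). The count of 4 was unstable: DESeq2 gave 118 and limma-voom 10, and leaving out KO-ORX mouse 3 gave 38. Without KO-sham mouse 2 there were 9, without KO-sham mouse 4 there were 7, without KO-sham mouse 5 there were 10 and without KO-sham mouse 6 there were 2. Those 2 were both among the 3 higher calls. Without KO-ORX mouse 1 there were again 4, of which 2 were among the 4 described above. Losses were thus not limited to *Efcab6*, while DESeq2 and limma-voom kept all 4.

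Leading genes of the KO response had similar or different sizes in WT, none with a called interaction beyond these 4. *Amd1* gave −2.18 in WT (interaction q = 0.78), *C7* −4.37 (0.61), *Slc30a2* −3.23 (0.75) and *Sesn1* 1.08 (0.96). *Odc1* gave −1.52 with an interaction of 0.73 ± 0.15 (q = 0.059), and *Actc1* 2.55 with −1.20 ± 0.27 (q = 0.081). *Dchs2* gave 0.26 with 0.92 ± 0.19 (q = 0.059), and *Gstm2* 1.49 with −0.78 ± 0.16 (q = 0.060). The matrix list had a WT median of −0.06 against 0.41 in KO, and its lowest interaction q was 0.28. For lipogenesis the WT median was −0.15, with interactions of 1.44 ± 0.38 (q = 0.14) for *Fasn* and 0.55 ± 0.14 (q = 0.13) for *Acaca*. Complex I had a WT median of −0.02 against −0.19, and its lowest interaction q was 0.29. Fatty acid oxidation had −0.26 against −0.33, with a lowest interaction q of 0.36. Medians of lists were not tested between genotypes. Of 8 genes that the study itself names for a genotype-dependent androgen response, 1 rose and 2 fell in KO (*Mybph*, *Ttll7* and *Spns2*), and as the study chose them on these samples the count is not independent evidence. The others gave 0.25 ± 0.11 (q = 0.18) for *2310016D23Rik*, 0.03 ± 0.064 (q = 0.84) for *Ampd1*, 0.08 ± 0.059 (q = 0.45) for *Pitpna*, 0.09 ± 0.076 (q = 0.51) for *Syne1* and −0.03 ± 0.061 (q = 0.78) for *Itpr1*. Interactions of *Mybph* (−1.82 ± 0.38 (q = 0.060)), *Ampd1* (−0.44 ± 0.089 (q = 0.059)) and *Itpr1* (0.43 ± 0.083 (q = 0.059)) missed q = 0.05 by a small margin.

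The opposite change of androgen, DHT given to female KO mice, shares no sample with the ORX comparison and differs from it in muscle, sex and age. KO-DHT against KO-empty gave 784 of 16987 genes (4.62%), 486 higher (2.86%) and 298 lower (1.75%), with 1201 by DESeq2 and 505 from the compared groups alone. Of 16642 genes in both tables, 962 were called with ORX and 755 with DHT, and 302 with both, which is 31.4% of the ORX and 40.0% of the DHT genes. All 302 moved in opposite directions, 230 lower with ORX and higher with DHT and 72 the reverse. Among the 962 genes called with ORX, 879 (91.4%) had the opposite sign with DHT, against 10713 (64.4%) of all genes in both tables. *Amd1* was higher with DHT by 2.80 ± 0.11 (q = 2.9e-15), *Slc30a2* by 4.80 ± 0.31 (q = 9.4e-11) and *C7* by 4.53 ± 0.27 (q = 2.6e-11). *Odc1* was higher by 1.11 ± 0.12 (q = 1.2e-06), *Smox* by 1.62 ± 0.15 (q = 1.2e-07) and *Actr3b* by 4.18 ± 0.20 (q = 3.2e-13). Among the rises with ORX, *Sesn1* gave −0.72 ± 0.12 (q = 3.8e-04) with DHT, *Stc2* −2.42 ± 0.24 (q = 1.6e-07) and *Neu2* −1.20 ± 0.13 (q = 4.9e-07). Called in both were all 4 called polyamine genes, 5 of 14 of fatty acid oxidation and 5 of 9 of the citric acid cycle. So were 5 of 9 of oxidative stress, 4 of 8 of complex I and 6 of 11 of complexes III to V. For matrix genes the count was 3 of 9, for mitochondrial DNA 1 of 4 and for lipogenesis 1 of 8. It was 0 of 6 for glycolysis and 0 of 3 for developing or stretched sarcomeres. The share over all genes called with ORX was 31.4%, and differences between lists were not tested. *Acsl1* (0.05 ± 0.093 (q = 0.79)), *Fasn* (−1.03 ± 0.54 (q = 0.24)), *AW551984* (−0.43 ± 0.30 (q = 0.40)) and *Dchs2* (−0.35 ± 0.22 (q = 0.36)) were not called with DHT. *Fbxo32* gave 0.01 ± 0.16 (q = 0.98) and *Mgst1* 0.20 ± 0.17 (q = 0.50). Slow sarcomere genes, with 0 calls after ORX, gave 2 lower with DHT, a list median of −1.20, and −1.94 ± 0.54 (q = 0.022) for *Myh7*.

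**Figure D3:**
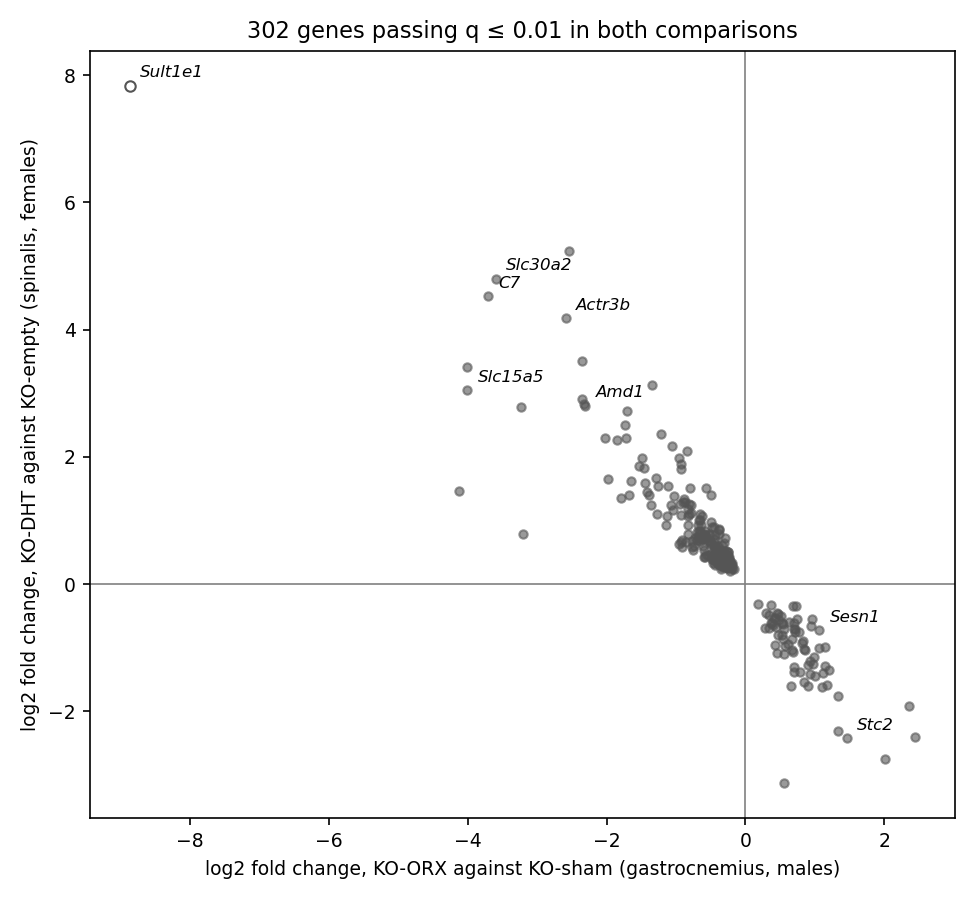
Each point is 1 of the 302 genes called in both comparisons, with the log2 fold change of KO-ORX against KO-sham (gastrocnemius, males) on the x axis and that of KO-DHT against KO-empty (spinalis, females) on the y axis. All points lie in the quadrants of opposite sign, and the open circle is *Sult1e1*, whose fitted position is no bound because KO-ORX libraries had 0 counts.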

How the data were processed

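Total RNA of gastrocnemius (ORX) and spinalis (DHT) was sequenced from Illumina TruSeq Stranded Total RNA GOLD libraries. Per the labels, the authors aligned reads to GRCm39 with STAR 2.7.1b, used SAMtools 1.9 and Picard 2.20.2, and counted reads on genes with featureCounts of Subread 2.0.0. The values the authors deposited are counts. They hold 17514 and 16987 genes, already filtered. From them, edgeR 4.0.16 in R 4.3.3 gave TMM factors, CPM and quasi-likelihood tests, with a mean for each of 4 groups in a table, a shared spread and Benjamini-Hochberg adjustment over all genes, at q of at most 0.01 for treatment and under 0.05 for the interaction. Shares of counts were compared by exact permutation of mice. Each ± is the log2 fold change divided by the square root of the test's F statistic. DESeq2 1.42.0, limma 3.58.1, scaling by total counts, thinning, a replicate block, other filters and leaving out each mouse were alternatives. Scripts were tested on simulated data. Figures used matplotlib 3.10.9 in Python 3.11.15. KO-ORX libraries held 26653932 to 48521557 counts and KO-sham libraries 29511438 to 37486666.

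Members and lists were chosen with earlier results of these data known. Named are the alpha-actinins, the 12 called genes of smallest p and the 6 of largest fold in each direction, key members and up to 6 called members of 34 lists, genes called for the interaction, the 10 genes with most counts, and the most abundant, defining and called markers of cell types. List medians are descriptions, and no set test was made. Some genes that this rule chose are not reported here.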

Additional observations from a re-analysis of the deposited data

Results flagged for a closer look

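A gap between the outermost mouse and the rest of its group, measured as Dixon's ratio, was large in 37 of 518 groups tested, and chance flags about 1 in 20. The CPM of each mouse that lay apart follows. KO-sham mouse 1 was high for *Acta1* (14486), *Adssl1* (556), *Atp2a1* (7889), *Gys1* (238), *Myh4* (64647), *Pygm* (4812), *Ryr1* (1821), *Slc16a3* (227), *Slc2a4* (452) and *Trim54* (144). KO-sham mouse 2 lay apart for *Fbxo32* (355), *Hspa8* (442), *Myl4* (6.83), *Rxrg* (46.8) and *Tnnt1* (128), low for *Hspa8* and *Rxrg* and high for the others. KO-sham mouse 4 was high for *Cfd* (216), *Ddit4* (46.7) and *Slc39a12* (0.456), and KO-sham mouse 5 for *Col1a1* (428), *Syt13* (0.262) and *Thbs4* (288). KO-sham mouse 6 was high for *Fos* (9.64). KO-ORX mouse 1 was high for *Ankrd1* (28.0), *Fos* (6.95), *Slc16a3* (119) and *Slc30a2* (0.946). KO-ORX mouse 2 lay apart for *Myog* (10.5), *Slc2a4* (307) and *Trim54* (92.0), low for *Trim54* alone. KO-ORX mouse 3 lay apart for *Acsl1* (277), *Cd3e* (1.98), *Col14a1* (36.9), *Gpx3* (38.6) and *Pmp22* (29.9), high for *Acsl1* and *Gpx3* and low for the others. Endothelial markers took a low share in KO-ORX mouse 2 (0.0271%), the T and NK cell marker in KO-ORX mouse 3 (2.03e-04%), and tendon markers a high share in KO-sham mouse 5 (0.0676%). The change with ORX in KO minus that in WT differed from 0 by the interaction test for *Ttll7* (0.53), *Spns2* (0.76), *Efcab6* (−0.44) and *Snora78* (1.36).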

How the results depend on the processing

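With 5 and 6 mice and 26653932 to 48521557 counts in a library, changes in genes with few counts are imprecise. Cells were not separated, and protein was not measured. The cause of each difference below was not tested, save where fewer mice or another threshold make it.

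The 975 genes became 485 with the KO groups alone and 1925 at q of at most 0.05, and ranged from 589 to 1116 when 1 mouse was left out. They were 900 with scaling by total counts, 1366 with DESeq2 and 850 with limma-voom. The 955 genes of WT became 1735 at q of at most 0.05 and ranged from 732 to 867. For the interaction, the count of 4 became 118 with DESeq2, 10 with limma-voom, 8 with genes of at least 1 CPM on average and 52 at q of at most 0.1, and ranged from 2 to 38. The 784 genes of KO-DHT became 1201 with DESeq2, 505 with the compared groups alone and 1840 at q of at most 0.05, and ranged from 533 to 870. The count of 1 class of counts became 2 without genes of mitochondrial DNA in the total and ranged from 0 to 0 with a mouse left out, as fewer arrangements then bound p. Of 34 lists, 21 had a median below that of all genes, and 20 to 23 with a mouse left out. Of 241 named genes, 138 were called, 98 with the KO groups alone, 99 with scaling by total counts, and 107 to 139 with a mouse left out.

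With a replicate block, which treats mice of equal number as paired, 914 genes were called in KO, 934 in WT and 5 for the interaction, and 134 named genes. Correlations of equal-numbered mice ranged from −0.10 to 0.13 over 5 pairs, and 0 of 5 KO-ORX mice correlated best with their own number. Named genes that turned sign with the replicate block were *Cfd* (0.00192), *Dbp* (0.00359), *Hbb-bs* (−0.0367), *Phgdh* (0.00113) and *Tsc22d3* (−0.0258).

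None of the genes that turned sign had passed the threshold. With scaling by total counts they were *Acta1* (0.00152), *Actn3* (0.102), *Cfd* (0.0720), *Ckm* (0.0203), *Cryab* (0.0415), *Dbp* (0.0819), *Ddit4* (0.0804), *Fst* (0.0832), *Hspb1* (0.0568), *Itpr1* (0.0703), *Ldb3* (0.0341), *Lyz2* (0.0526), *Myh4* (0.00185), *Myot* (0.0144), *Phgdh* (0.0939), *Psma1* (0.0459), *Rgs5* (0.0392) and *Tpm1* (0.0779). DESeq2 turned *Ddit4* (0.00118), *Fabp4* (−0.00713) and *Hbb-bs* (−4.44e-04), limma-voom *Actn3* (0.00576), *Cfd* (0.0488) and *Phgdh* (0.00959), and thinning to the smallest library *Actn3* (0.00211), *Ddit4* (0.0330) and *Fst* (0.009996). With a mouse left out, ranges of log2 fold changes that crossed 0 were *Actn3* (−0.0712 to 0.0765), *Ampd1* (−0.0135 to 0.0546), *Arntl* (−0.0834 to 0.170), *Cfd* (−0.174 to 0.341), *Ctsl* (−0.00319 to 0.0887), *Dbp* (−0.148 to 0.110), *Ddit4* (−0.658 to 0.772), *Fabp4* (−0.0793 to 0.0597), *Fst* (−0.107 to 0.0702), *Hbb-bs* (−0.0918 to 0.199), *Hspb1* (−0.103 to 0.0181), *Lyz2* (−0.106 to 0.0435), *Map1lc3b* (−0.0129 to 0.0371), *Mstn* (−0.0212 to 0.136), *Mtap* (−0.0256 to 0.0751), *Myh4* (−0.172 to 0.0178), *Neb* (−0.208 to 0.0312), *Phgdh* (−0.0955 to 0.159), *Plin1* (−0.0776 to 0.269), *Tsc22d3* (−0.141 to 0.216) and *Ttn* (−0.239 to 0.0413). Without genes of mitochondrial DNA in the total, the difference in share turned to −0.282 points for sarcomere genes and −0.234 for muscle fibre markers. With a mouse left out it ranged across 0 for these classes (−0.0631 to 0.273 and −0.120 to 0.297), erythroid markers (−4.02e-05 to 0.00815) and neutrophil markers (−1.28e-05 to 8.90e-07).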
